A study of Mus musculus with 2 samples.

Results

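The Nr4a and Egr genes are 6 of the 32285 genes in the count table, *Nr4a1*, *Nr4a2*, *Nr4a3*, *Egr1*, *Egr2* and *Egr3*, and were taken by their symbols. *Nr4a1*, *Nr4a2* and *Nr4a3* encode orphan nuclear receptors, and *Egr1*, *Egr2* and *Egr3* encode zinc-finger transcription factors. In T cells they are immediate early genes: engagement of the T cell receptor (TCR) switches them on through calcium and NFAT and through MAP kinases acting on SRF and its partners, without new protein synthesis. Their transcripts are short-lived, so they are widely used as a mark of recent receptor signalling, although stress, cytokines and tissue handling can induce some of them as well. In chronically stimulated and tumor-infiltrating CD8+ T cells the Nr4a factors are known for limiting effector function, and *Egr2* and *Egr3* for restraint and anergy.

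The cells were CD8+ T cells from B16 F0 melanoma tumors transplanted into male C57Bl/6J mice and taken on day 14, enriched on CD8 MicroBeads and sorted on CD8 staining. Lean mice were fed normal chow (NC) and obese mice a western diet (WD) for 12 weeks, the mice were 16 weeks old, and each diet is 1 library. Both groups carried the same tumor line and no engineered allele or drug is named, and the number of mice in a library is not stated. The comparisons ask which CD8+ cell states carry these transcripts and how their levels differ between lean and obese hosts.

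After filtering, 2456 NC cells with 27815785 unique molecular identifiers (UMIs, the tags that let each RNA molecule be counted 1 time) and 2289 WD cells with 28705830 UMIs remained. The median cell had 7958 UMIs in NC and 9103 in WD. *Cd3e*, a subunit of the TCR complex, was detected in 91.7% of NC and 92.4% of WD cells, and *Cd8b1* in 91.5% and 91.8%. Summed B cell, melanoma, CD4 and NK or gamma-delta marker lists each stayed at or under 6.15 CPM (counts of a gene or list per 1000000 UMIs), the myeloid list was at 48.1 in NC and 32.2 in WD hemoglobin at 0 and 320 and the dendritic-like list at 502 and 510 (4 and 5 of its 6 genes above 10 CPM), and 2 cell barcodes occurred in both libraries. Levels below are CPM of the summed UMIs of a group of cells with a 95% interval, and the difference between diets is given as log2 of the WD level over the NC level. With 1 library per diet there is no test between diets, and every interval covers counting error only and leaves out differences between mice. Intervals of levels and ratios also treat the UMIs of a cell as independent, so they leave out differences between cells.

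Clustering without the 6 genes and without related response and stress genes gave 7 main clusters. Cluster 0 (1189 cells) was led by *Gzma*, *Ccl5*, *Cxcr3* and interferon-induced genes such as *Ifit3*. Cluster 1 (1067 cells) was proliferating-like, cluster 2 (1024 cells) was naive- or memory-like, led among others by *Lef1*, *Tcf7* and *Ccr7*, and cluster 3 (877 cells) was effector-like with *Gzmd*, *Gzmf*, *Gzme* and *Gzmc*. Cluster 4 (471 cells) was shallow, with a median of 2634 UMIs per cell, and stays unnamed. Its leading genes after hemoglobin were the nuclear and non-coding RNAs *Gm26917* and *Rmrp*. Clusters 5 (87 cells, median 741 UMIs) and 6 (30 cells, dendritic-like) held too few cells for the comparisons within clusters. The effector-like cluster held 24.4% of NC and 12.1% of WD cells, and cluster 0 held 19.7% and 30.8%.

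The promoters of the 3 Nr4a genes are shown because these genes differed together between the libraries, and that of *Egr2* because its level marked particular cells. They were read from RefSeq on GRCm38.p6, from 250 bases before to 50 after a transcript start, and capitals mark motifs found by a letter search on both strands. In the *Nr4a1* window (chr15:101266596-101266895, plus strand) capitals mark TGCGTCA, a variant of the cyclic AMP response element that holds the core TGACG on the other strand, at -235, -215, -71 and -42 relative to the start. In *Nr4a2* (chr2:57123954-57124253, minus strand) and *Nr4a3* (chr4:48045055-48045354, plus strand) they mark TGACG or its reverse complement. In *Egr2* (chr10:67537619-67537918, plus strand, window 3 of 5 in RefSeq) they mark 2 TGACG matches and, at -72, a CArG box, the binding motif of SRF.
Nr4a1: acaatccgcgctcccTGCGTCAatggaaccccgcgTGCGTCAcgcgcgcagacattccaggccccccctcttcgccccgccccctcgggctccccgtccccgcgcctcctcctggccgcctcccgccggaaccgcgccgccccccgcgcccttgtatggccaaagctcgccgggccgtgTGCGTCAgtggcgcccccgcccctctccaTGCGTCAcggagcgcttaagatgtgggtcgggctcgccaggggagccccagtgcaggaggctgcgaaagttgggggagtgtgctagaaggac
Nr4a2: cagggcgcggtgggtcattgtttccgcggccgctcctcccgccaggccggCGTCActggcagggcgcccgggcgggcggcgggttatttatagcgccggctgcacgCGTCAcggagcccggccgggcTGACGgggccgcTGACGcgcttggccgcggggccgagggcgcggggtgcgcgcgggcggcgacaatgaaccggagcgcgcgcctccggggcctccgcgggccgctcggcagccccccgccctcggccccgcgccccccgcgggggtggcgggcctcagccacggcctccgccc
Nr4a3: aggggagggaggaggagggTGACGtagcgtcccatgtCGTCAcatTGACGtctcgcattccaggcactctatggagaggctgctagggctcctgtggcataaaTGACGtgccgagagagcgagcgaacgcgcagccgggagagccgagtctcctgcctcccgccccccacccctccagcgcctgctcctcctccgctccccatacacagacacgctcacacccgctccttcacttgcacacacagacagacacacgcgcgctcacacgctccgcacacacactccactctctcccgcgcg
Egr2: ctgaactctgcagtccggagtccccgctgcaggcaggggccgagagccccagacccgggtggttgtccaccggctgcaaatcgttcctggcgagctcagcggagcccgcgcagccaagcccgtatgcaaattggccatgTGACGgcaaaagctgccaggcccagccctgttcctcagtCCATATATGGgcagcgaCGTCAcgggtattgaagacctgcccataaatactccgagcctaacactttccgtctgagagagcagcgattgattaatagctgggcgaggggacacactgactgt
Each of the 3 Nr4a windows held 4 matches to TGACG, a core found at least 1 time in 20.9% of 32544 RefSeq promoter windows. The share of windows with 4 matches was not counted. TGCGTCA was in 2.13% of windows, the full element TGACGTCA in 1.80% and a CArG box in 1.64%. The Nr4a target motif AAAGGTCA (1.52% of windows) and the Egr target motif GCGTGGGCG (0.618%) were in none of the windows of the 4 genes. A match describes letters and not a bound site. The *Nr4a1* and *Egr2* windows lie inside the annotated genes, before internal starts. 

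In the GENCODE annotation of GRCm38 the genes span chr15:101254269-101274795 (*Nr4a1*), chr2:57106830-57124003 (*Nr4a2*), chr4:48045153-48086447 (*Nr4a3*), chr18:34859823-34864984 (*Egr1*), chr10:67535475-67542188 (*Egr2*) and chr14:70077203-70082614 (*Egr3*), and no other annotated gene overlaps any of them.

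Over all cells, the Nr4a genes were higher in the obese library, *Egr1* was slightly higher, *Egr2* was level and *Egr3* was lower. *Nr4a1*, the family member best known as a reporter of TCR signal strength, stood at 27.6 CPM (25.7 to 29.7, 769 UMIs) in NC and 47.4 (44.89 to 49.96, 1360 UMIs) in WD, a log2 ratio of 0.78 (0.65 to 0.91). *Nr4a2* had 96.7 CPM (2690 UMIs) in NC and 154 (4407 UMIs) in WD, a log2 ratio of 0.67 (0.60 to 0.74). *Nr4a3* had 24.7 CPM (688 UMIs) and 38.5 (1104 UMIs), a log2 ratio of 0.64 (0.50 to 0.78). The libraries' intervals did not overlap for any of these 3 nuclear receptors. Counting error is small at these totals, and the share of all genes with intervals apart was not counted. The ratio of *Cd3d*, for 1, was -0.24 with an interval of -0.27 to -0.22. Summed, the Nr4a family was at 149 CPM in NC and 239 in WD, a log2 ratio of 0.68 (0.63 to 0.74).

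*Egr1*, the broadest of the Egr immediate early genes and responsive to growth factors and stress, had 72.7 CPM (2023 UMIs) in NC and 86.7 (2488 UMIs) in WD, a log2 ratio of 0.25 (0.17 to 0.34). *Egr2*, which depends more closely on antigen receptor signals in T cells, had 7.41 CPM (206 UMIs) and 7.39 (212 UMIs), a ratio whose interval ran from -0.29 to 0.28. *Egr3*, which acts together with *Egr2*, had 8.05 CPM (224 UMIs) and 4.95 (142 UMIs), a log2 ratio of -0.70 (-1.02 to -0.39). The Egr genes thus did not share a direction, and their sum, 88.2 CPM in NC and 99.0 in WD (log2 ratio 0.17, 0.088 to 0.25), was mostly *Egr1*. *Egr3* also sat in few cells: its 10 highest cells held 30.4% of its UMIs in NC and 33.8% in WD, against at most 18.4% for any other of the 6. Without those 10 cells of each library its log2 ratio was -0.78.

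**Figure D1:**
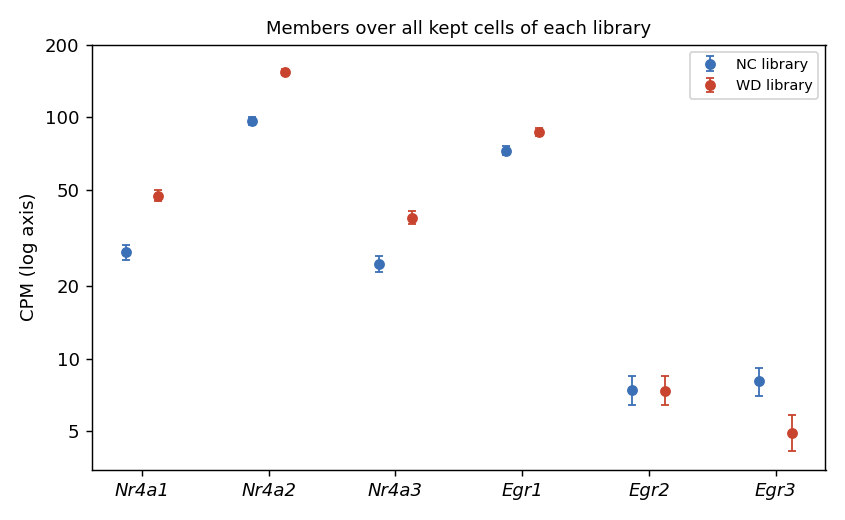
Level of each of the 6 genes over all kept cells of the NC (blue) and WD (red) libraries, in CPM on a log axis. Points are 1 library each and bars are 95% Poisson intervals. The bars of the 2 libraries are apart for the 3 Nr4a genes and *Egr1* (WD above) and for *Egr3* (WD below), and coincide for *Egr2*. The share of all genes with bars apart was not counted.

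Against all genes, a difference of this size was uncommon. Among the 7059 genes that reached 10 CPM in a library and had 20 UMIs in both, 1.60% were at least 1.5-fold higher in WD and 1.30% at least 1.5-fold lower, 57.7% had a ratio above 0 and the median log2 ratio was 0.035. *Nr4a1*, *Nr4a2*, *Nr4a3* and *Egr1* are among those 7059 genes, and the 3 Nr4a genes were past 1.5-fold higher. *Egr2* and *Egr3* lie under the 10 CPM minimum over all cells and are in none of these counts.

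More WD cells carried an Nr4a transcript at equal depth. With every cell thinned to 2000 UMIs, which left out 126 NC and 112 WD cells, 23.7% of NC cells (22.0 to 25.5) and 35.3% of WD cells (33.3 to 37.4) had a UMI of an Nr4a gene. Without thinning the shares were 59.8% and 74.9%. For an Egr gene the thinned shares were 16.0% (14.5 to 17.6) and 18.4% (16.8 to 20.1), and the unthinned shares 44.0% and 49.5%. The Nr4a intervals were apart and the Egr intervals overlapped, and how often those of other genes were apart was not counted. No group of cells here is known to lack these genes, so the share that free RNA would give was not measured.

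Per UMI, the 3 Nr4a genes were distributed differently over the states. In CPM, *Nr4a1* was higher in clusters 0 and 2 than in clusters 1 and 3. It had 52.2 CPM (45.8 to 59.3) in NC and 84.4 (75.4 to 94.2) in WD for cluster 2 (naive- or memory-like), and 58.0 and 69.8 in cluster 0. Cluster 3, effector-like, had 17.0 (14.24 to 20.05) and 34.4 (29.2 to 40.3), and cluster 1, proliferating-like, had 17.9 and 32.8. Clusters 1 and 3 did not differ beyond their intervals in either library, nor did clusters 0 and 2. Clusters 0 and 2 were each above both clusters 1 and 3 in each library. The log2 ratio of effector-like over naive-like cells was -1.62 (-1.94 to -1.31) in NC and -1.29 (-1.58 to -1.01) in WD. Depth differed, with medians of 5959, 22582, 7613 and 12096 UMIs per cell in clusters 0 to 3. Without thinning the order changed, as *Nr4a1* was in 21.9%, 23.6%, 27.6% and 15.4% of NC cells. In WD it was in 29.2%, 41.95%, 39.02% and 32.7%. Thinned to 2000 UMIs, it was in at least 8.73% (NC) and 10.97% (WD) of cells of clusters 0 and 2. In clusters 1 and 3 it was in at most 4.51% and 7.91%, with overlapping intervals in WD.

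In CPM, *Nr4a2* had the opposite distribution. It was lowest in cluster 2, at 34.7 CPM (29.5 to 40.6) in NC and 64.3 (56.4 to 72.9) in WD, and stood at 116 (109 to 124) and 199 (186 to 213) in cluster 3. Cluster 1 had 97.2 and 155, and cluster 0 had 83.4 and 151. Clusters 0 and 1 did not differ beyond their intervals in either library. Effector-like over naive-like cells gave a log2 ratio of 1.74 (1.49 to 1.99) in NC and 1.63 (1.43 to 1.84) in WD, so *Nr4a1* and *Nr4a2* ordered these states in reverse in both libraries. Of 6624 genes, 27.7% were at least 1.5-fold higher in effector-like than in naive-like cells in both libraries and 7.52% were at least 1.5-fold lower. *Nr4a2* was in the larger group, *Nr4a1* in the smaller, and *Nr4a3* and *Egr1* in neither.

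*Nr4a3* varied less among these states. It had 44.9 CPM in NC and 53.3 in WD in cluster 0, 25.9 and 36.0 in cluster 2, 19.8 and 41.2 in cluster 3, and 18.9 and 27.5 in cluster 1. Effector-like over naive-like cells gave -0.39 (-0.74 to -0.030) in NC and 0.20 (-0.13 to 0.53) in WD. Its highest level among the 5 larger clusters was in the shallow cluster 4, at 82.8 (64.8 to 104) and 125 (101 to 152). *Nr4a2* (285 and 361 CPM) and *Egr1* (236 and 331 CPM) were also highest there in both libraries, while *Nr4a1* was not (38.0 and 63.6). Depth differed along with this: cells of cluster 4 had 2503 (NC) and 3001 (WD) UMIs at the median. Thinned to 2000 UMIs, which kept 185 NC and 141 WD cells of cluster 4, *Nr4a2* was in 41.1% and 39.7% of them. In clusters 0 to 3 it was in at most 16.5% and 34.2%. *Nr4a3* was in 14.1% and 22.7%, against at most 6.86% and 10.1%, and *Egr1* in 30.8% and 41.1%, against at most 17.5% and 19.5%. The part of depth in the CPM levels was not tested.

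**Figure D2:**
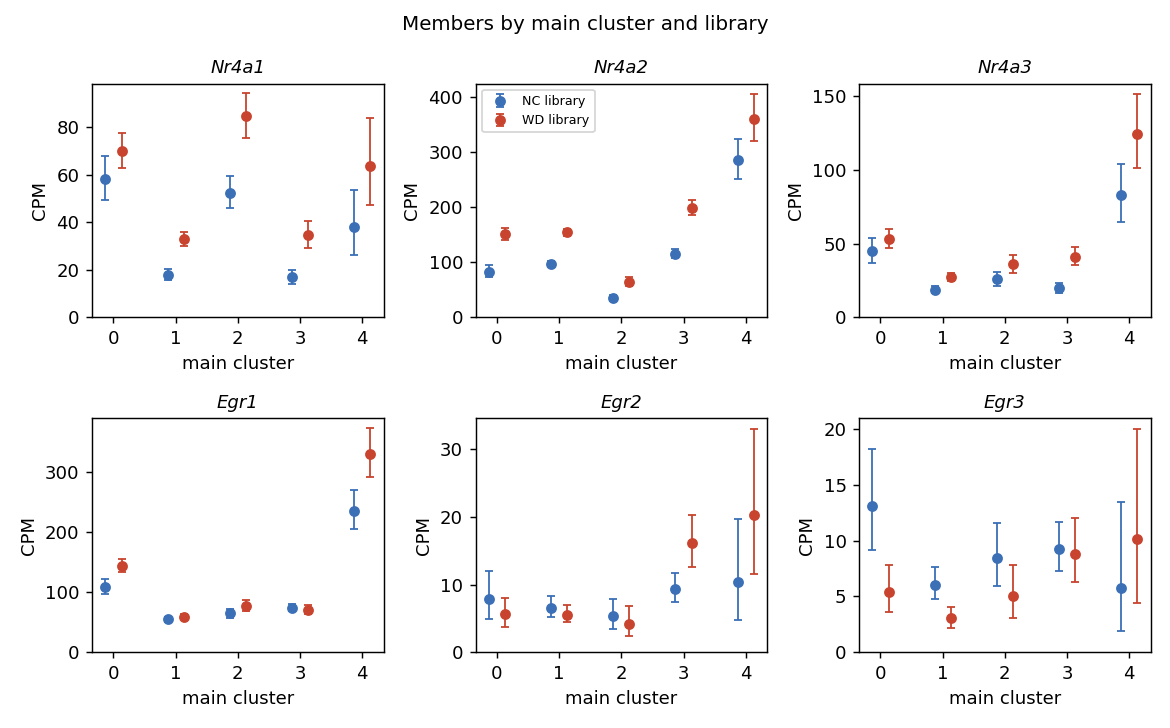
CPM of each gene in main clusters 0 to 4 (horizontal axis) for NC (blue) and WD (red), on axes that start at 0. Points are the summed cells of 1 library in 1 cluster and bars are 95% Poisson intervals. *Nr4a1* is high in clusters 0 and 2 and low in 1 and 3, *Nr4a2* is lowest in cluster 2, and *Nr4a2*, *Nr4a3* and *Egr1* peak in the shallow cluster 4.

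Among the Egr genes, *Egr2* differed most between the effector-like and naive-like main clusters. *Egr1* had 109 CPM in NC and 144 in WD in cluster 0, and between 54.7 and 77.5 in clusters 1, 2 and 3 of both libraries. *Egr2* was highest among the deeper clusters in cluster 3, at 9.41 CPM (7.41 to 11.8, 76 UMIs) in NC and 16.1 (12.6 to 20.3, 71 UMIs) in WD, and had 4.23 to 7.86 CPM in clusters 0, 1 and 2. In NC the *Egr2* interval of cluster 3 overlapped those of clusters 0, 1 and 2, and in WD it lay above them. Its effector-like over naive-like log2 ratio was 0.82 (0.15 to 1.55) in NC and 1.93 (1.13 to 2.81) in WD. *Egr3* had 9.28 and 8.83 CPM in cluster 3 and its intervals there overlapped those of cluster 2 in both libraries.

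With both libraries weighted equally, the summed Nr4a level was higher in effector-like than in naive-like cells by a log2 ratio of 0.52 (0.42 to 0.62), and the summed Egr level by 0.19 (0.052 to 0.33). Both values moved with the total used. When mitochondrial and ribosomal protein genes were left out of the total, the Nr4a ratio was 0.19 and the Egr ratio turned to -0.14. The total is shared by all genes, so it shifts each of them equally, and the ratios of *Nr4a1* and *Nr4a2* given above are several times this shift. The lower limit of the *Egr2* ratio in NC, 0.15, is smaller than this shift.

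Within states, the higher Nr4a level of the WD library in CPM was seen in all 5 larger clusters, with *Nr4a2* the most even. Its log2 ratio of WD over NC was 0.85 (0.64 to 1.07) in cluster 0, 0.67 (0.57 to 0.77) in cluster 1, 0.89 (0.59 to 1.19) in cluster 2, 0.78 (0.65 to 0.92) in cluster 3 and 0.34 (0.09 to 0.59) in cluster 4. *Nr4a1* ranged from 0.27 (-0.01 to 0.55) in cluster 0 to 1.02 (0.68 to 1.37) in cluster 3. *Nr4a3* ranged from 0.25 (-0.07 to 0.57) in cluster 0 to 1.06 (0.74 to 1.37) in cluster 3. Among these 5 clusters, the effector-like cluster 3 thus had the largest point estimates for *Nr4a1* and *Nr4a3*. Cluster 0 had the smallest, with intervals that include 0. In the finer clustering described below, the effector-like fine cluster 1 did not have the largest. For *Nr4a1* it had 1.24, against 1.48 in fine cluster 4 and 1.91 in the interferon-stimulated-like fine cluster 8. For *Nr4a3* it had 1.13, against 0.85 in fine cluster 4 and 1.76 in fine cluster 8. The intervals of these 3 fine clusters overlapped for each gene. Weighting the clusters equally gave 0.65 for the summed Nr4a genes, close to the 0.68 over all cells, although the clusters take up different shares of the 2 libraries.

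*Egr1* was higher in WD in clusters 0 (0.41, 0.21 to 0.61), 2 (0.26, 0.02 to 0.50) and 4 (0.49, 0.22 to 0.76), and its intervals included 0 in clusters 1 and 3. *Egr2* was higher in WD in the effector-like cluster 3 (0.77, 0.29 to 1.26), and its interval included 0 in each of the other 4. *Egr3* was lower in clusters 0 (-1.27, -2.04 to -0.51) and 1 (-1.002, -1.58 to -0.43) and near level in cluster 3 (-0.07, -0.67 to 0.50). Differences of these ratios between clusters were not tested.

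At least 1.5-fold higher in WD were *Nr4a2* in cluster 0 (2.79% of all genes tested there), *Nr4a1* and *Nr4a2* in cluster 1 (2.11%), *Nr4a1* and *Nr4a2* in cluster 2 (3.97%), the 3 Nr4a genes and *Egr2* in cluster 3 (6.24%) and *Nr4a1* and *Nr4a3* in cluster 4 (5.99%). *Egr3* was at least 1.5-fold lower in cluster 0, as were 2.69% of genes there. With the minimum of CPM and UMIs applied within a cluster, *Egr3* was tested in cluster 0 only and *Egr2* in cluster 3 only. The effector-like cluster is where most of the 6 passed this size, and also where the share of all genes passing it was highest.

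**Figure D3:**
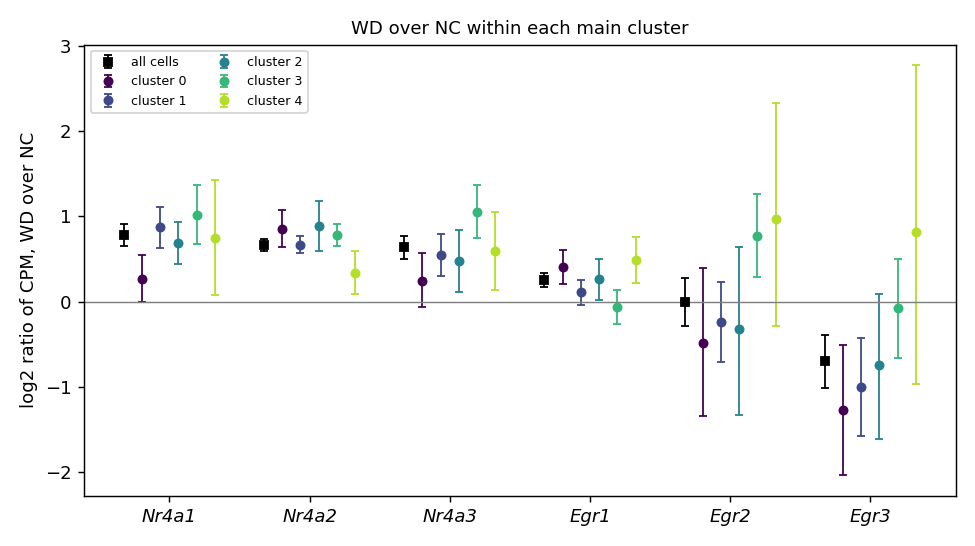
Log2 ratio of CPM, WD over NC, for each gene over all cells (black squares) and within main clusters 0 to 4 (coloured circles), with 95% exact conditional intervals and a line at 0. The points of *Nr4a1*, *Nr4a2* and *Nr4a3* lie above 0 in every cluster, those of *Egr1* between -0.06 and 0.49, and those of *Egr3* below 0 except in cluster 4, where 5 and 8 UMIs were counted.

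Finer clustering into 13 clusters located the rarer Egr transcripts. *Egr2* was concentrated in fine cluster 7 (100 NC and 130 WD cells), which was led by *Ccl1*, *Cd81*, *Penk*, *Csf2*, *Xcl1* and *Cd200* and has no name from the markers used. It had 31.0 CPM (22.0 to 42.4) there in NC and 25.0 (18.3 to 33.4) in WD. This cluster held 4.07% of NC and 5.68% of WD cells but 18.9% and 21.7% of the *Egr2* UMIs. In the effector-like fine cluster 1, by contrast, *Egr2* stood at 5.77 and 10.3 CPM. Its log2 ratio of WD over NC was 0.84 (0.11 to 1.56) in fine cluster 1 and -0.31 (-0.96 to 0.35) in fine cluster 7. The naive- or memory-like fine clusters 2 and 6 had 6.19 and 3.77 CPM in NC and 2.70 and 6.51 in WD. The intervals of fine cluster 1 overlapped those of both in NC, and that of fine cluster 6 in WD. *Egr3* was not raised in fine cluster 7, with 5.56 CPM (7 UMIs) and 1.63 (3 UMIs).

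A small group, fine cluster 11 (28 NC and 9 WD cells), was led by *Xcl1*, *Ccl1*, *Crtam*, *Ccl4*, *Tnfsf14* and *Il2*, which are secreted or surface products of freshly triggered T cells. In NC it had the highest *Nr4a1* (171 CPM, 131 to 221), *Egr2* (40.0, 21.9 to 67.1, 14 UMIs) and *Egr3* (45.7, 26.1 to 74.2, 16 UMIs) of the fine clusters with at least 20 NC cells, apart from the shallowest, where *Egr3* rests on 1 UMI. In WD *Egr2* and *Egr3* had no UMI in the 9 cells, where 3 counts would have been 21.6 CPM, and *Nr4a1* was 64.9 (29.7 to 123). The NC and WD intervals of *Nr4a1* did not overlap, and WD was the lower library, unlike in the main clusters. *Nr4a3* had 120 CPM (86.5 to 162) in NC and 57.7 (24.9 to 114) in WD. *Egr1*, in contrast, was among the lower values here in NC, at 48.6.

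In the interferon-stimulated-like fine cluster 8 (64 NC and 72 WD cells) each of the 3 Nr4a genes was higher in WD. *Nr4a1* was at 29.3 CPM (15.1 to 51.2) in NC and 110 (83.3 to 142) in WD, *Nr4a2* at 58.6 and 145, *Nr4a3* at 17.1 (6.87 to 35.2) and 57.9 (39.05 to 82.6), and *Egr3* at 0 UMIs, where 3 counts would have been 7.32 CPM, and 15.4 CPM (8 UMIs). Summed, the Nr4a genes had a log2 ratio of 1.57 (1.08 to 2.09) there. In the neighbouring *Gzma*-led fine cluster 0 the same sum gave 0.51 (0.35 to 0.68). The WD level of *Nr4a1* was similar in the naive- or memory-like fine cluster 2, at 100 CPM (87.6 to 114).

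**Figure D4:**
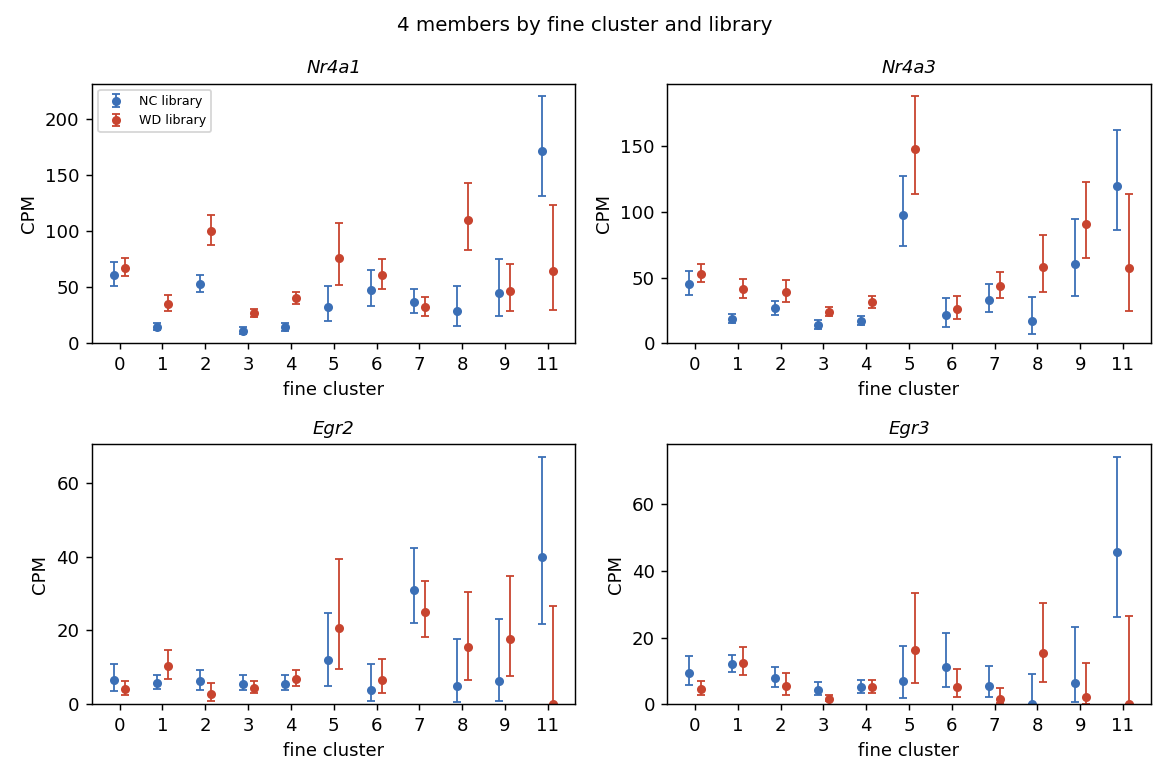
CPM of *Nr4a1*, *Nr4a3*, *Egr2* and *Egr3* in fine clusters 0 to 9 and 11 for NC (blue) and WD (red), with 95% Poisson intervals; fine clusters 10 (median 741 UMIs) and 12 (dendritic-like) are left out. *Egr2* stands out in cluster 7 and in NC cells of cluster 11, and *Egr3* and *Nr4a1* in NC cells of cluster 11. Among WD cells *Nr4a1* is highest in clusters 8 and 2, whose intervals overlap.

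To see what travelled with each transcript, cells with a UMI of a gene were compared with cells without it at 5000 UMIs each, within a library. The list of 28 TCR response genes (receptors, cytokines, chemokines and transcription factors induced by antigen) and the list of 20 AP-1 and stress genes were followed, and a gene counted when at least 1.5-fold higher in both libraries. Clusters 1 and 3 were pooled, and 24 and 17 genes of the lists had enough counts. Of the TCR response genes, 10 were higher in cells with *Egr2* (background over all genes 2.61%), 10 with *Egr3* (3.22%) and 9 with *Nr4a3* (0.958%). There were 3 higher with *Nr4a1* (0.392%), 2 with *Nr4a2* (0.152%) and 1 with *Egr1* (0.218%). The background was largest for *Egr2* and *Egr3*, the members found in the fewest cells, so the counts of different members are not on 1 scale. Of the AP-1 and stress genes, 0 to 2 were higher with any of the 6.

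*Xcl1*, *Ccl3*, *Ccl4* and *Tnf* were higher with each of *Egr2*, *Egr3* and *Nr4a3*. *Ccl4*, a chemokine released on TCR triggering, had 8287 CPM in NC cells with *Egr2* and 2262 in those without, and 3793 and 1362 in WD. For *Egr1* the same chemokine had 3257 and 2249 CPM in NC and 1960 and 1275 in WD. *Fos*, an AP-1 gene, had 251 and 211 CPM with and without *Egr2* in NC, and 393 and 340 in WD. Cells with *Egr2* were few (39 NC and 30 WD), as were those with *Egr3* (34 and 14), against 88 and 109 for *Nr4a3* and 383 and 402 for *Nr4a2*.

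These counts leaned on the small fine cluster 11, and without it *Ccl3* and *Ccl4* were still higher with each of *Egr2*, *Egr3* and *Nr4a3*, whereas *Tnf* was not with *Nr4a3*, nor *Xcl1* with *Egr3*. Without that cluster, 8 TCR response genes were higher with *Egr2* (background 2.96%), 5 with *Egr3* (3.31%) and 5 with *Nr4a3* (0.783%), of 23 with enough counts. With *Nr4a1* (0.326%), *Nr4a2* (0.131%) and *Egr1* (0.174%) there was 1 each. Fine cluster 7, which held 18.9% (NC) and 21.7% (WD) of the *Egr2* UMIs, was not left out. Its *Xcl1* level was 1783 CPM in NC and 2197 in WD, against 155 and 279 in fine cluster 1. Cells with and without a transcript can thus differ in state, and the part of this in the counts was not tested. In clusters 0 and 2 the counts of 21 were 4 with *Egr2* (2.50%), 4 with *Egr3* (2.45%), 4 with *Nr4a3* (0.552%), 3 with *Nr4a2* (0.696%), 2 with *Egr1* (0.144%) and 0 with *Nr4a1* (0.0240%).

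**Figure D5:**
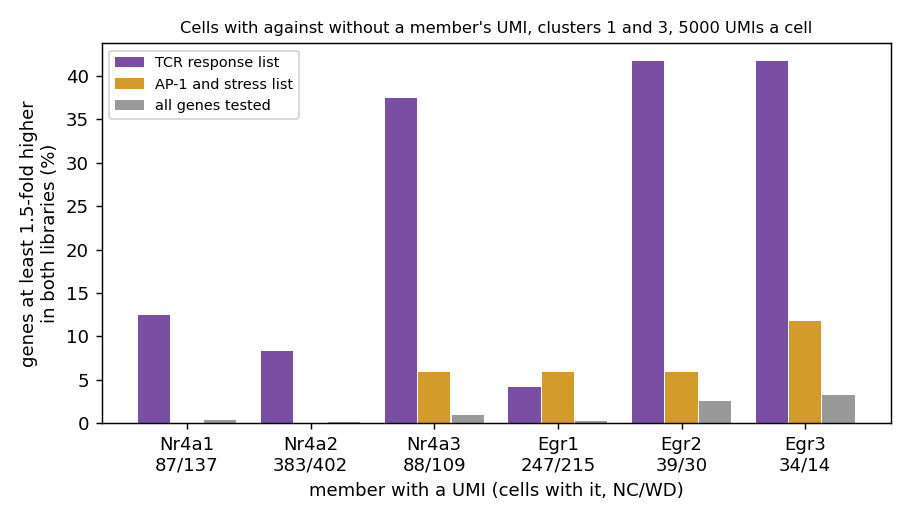
Share (%) of the TCR response list, of the AP-1 and stress list and of all genes tested that was at least 1.5-fold higher in both libraries in cells with a UMI of the gene named below than in cells without it, in main clusters 1 and 3 at 5000 UMIs a cell. The second line of each label gives the cells with a UMI in NC and WD. The TCR response bars are tallest for *Nr4a3*, *Egr2* and *Egr3*.

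*Nr4a3* was more often found in cells with *Egr2* or *Egr3* than in cells without them in clusters 1 and 3. Among cells of clusters 1 and 3 with *Egr2* at 5000 UMIs, 30.8% in NC (12 of 39, 17.0 to 47.6) and 36.7% in WD (11 of 30, 19.9 to 56.1) also had *Nr4a3*, against 7.43% (5.90 to 9.21) and 11.8% (9.70 to 14.2) of cells without *Egr2*. With *Egr3* the shares having *Nr4a3* were 38.2% and 42.9%, against 7.30% and 12.2% without. The intervals were apart in both libraries for each of these pairs. These shares include fine cluster 11 and were not counted again without it. Outside that cluster lay 35 of the 39 NC cells with *Egr2* and 30 of the 34 with *Egr3*. *Egr2* and *Egr3* met in few cells, as 5 of 39 NC cells with *Egr2* had *Egr3* (12.8%, against 2.83% of those without) and 2 of 30 in WD (6.67%, against 1.45%, with overlapping intervals). In clusters 0 and 2 the shares having *Nr4a3* were 42.9% of cells with *Egr3* and 13.4% of those without in NC, with intervals apart, but 9.09% (2 of 22) and 17.4% in WD, with overlapping intervals. For *Egr1* and *Nr4a2* the shares lay closer together, as 43.3% of NC and 46.5% of WD cells with *Egr1* had *Nr4a2*, against 33.9% and 46.9% of those without.

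The lists around the 6 genes did not share a direction between the libraries. Of the TCR response genes tested over all cells, 16 of 27 were higher in WD and 11 lower, where 57.7% of all genes were higher. Their median log2 ratio was 0.16 against 0.035 over all genes. Past 1.5-fold, 2 were higher (1.60% of all genes) and 3 lower (1.30%). The highest were *Gadd45b* (0.79), *Il2* (0.78) and *Pim1* (0.54), and the lowest were the repressor *Zbtb32* (-0.94) and the chemokines *Ccl4* (-0.75) and *Ccl3* (-0.70). In the effector-like cluster 3, 12 of 27 were past 1.5-fold higher (6.24% of all genes there) and 2 past it lower (2.87%). Summed, the list had 8277 CPM in NC and 7915 in WD in the effector-like fine cluster 1 (513 NC and 177 WD cells). In fine cluster 7 (100 and 130 cells) it had 6991 and 8269. How far the mix of finer states shaped the counts of cluster 3 was not tested. The other main clusters had fewer genes higher. Cluster 0 had 2 higher (2.79% of all genes) and 2 lower (2.69%), and cluster 1 had 2 higher (2.11%) and 4 lower (1.74%). Cluster 2 had 2 higher (3.97%) and 1 lower (2.43%), and cluster 4 had 3 higher (5.99%) and 0 lower (5.77%). Genes linked to Nr4a and Egr in restraint of T cells had 4 of 14 higher and 10 lower over all cells, with a median of -0.15. Within clusters the direction differed, with 9 of 10 higher in cluster 2 (median 0.31, over all genes 0.018) and 7 of 14 in cluster 0. In cluster 3 it was 4 of 15 (median -0.32, over all genes 0.038). Over all cells, among genes of this list with 100 UMIs in each library, *Tox* (0.31), *Ctla4* (0.24) and *Ikzf2* (0.21) were the highest. The checkpoint receptor genes *Lag3* (-0.89), *Havcr2* (-0.85) and *Tigit* (-0.65, under the 10 CPM minimum) were the lowest. With fewer UMIs, *Tox2* had 2.14 (1.55 to 2.77, 29 UMIs in NC and 132 in WD). *Rnf128* had 0.58 (-0.20 to 1.38) and *Ndrg1* -0.86 (-1.24 to -0.50). Of 13 genes of the TCR complex and its proximal kinases and adaptors 1 was higher (median -0.098), and of 11 factors upstream of the 6 genes 5 were higher (median -0.0021).

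The AP-1 and stress list was, like the Nr4a genes, mostly higher in WD. Of its 20 genes, 19 were higher in WD (57.7% over all genes) and 8 were past 1.5-fold (1.60%), with a median of 0.53. The highest were the heat shock genes *Hspa1b* (1.76) and *Hspa1a* (0.84) and the mRNA-decay factor *Zfp36* (0.85), and the lowest were *Jund* (-0.11), *Hspa8* (0.040) and *Klf6* (0.13). Among the cells at or under the median share of AP-1 and stress UMIs (1507 NC and 866 WD cells), the log2 ratio of the summed Nr4a genes was 0.53 (0.45 to 0.61), and among the others (949 and 1423 cells) 0.43 (0.35 to 0.52). That sum is mostly *Nr4a2* (0.57 and 0.59). *Nr4a1*, at 0.78 over all cells, had 0.55 (0.34 to 0.77) and 0.19 (0.03 to 0.36), and *Nr4a3*, at 0.64, had 0.30 (0.08 to 0.51) and 0.31 (0.12 to 0.51). For *Egr1* it was -0.16 (-0.29 to -0.031) and 0.08 (-0.04 to 0.20), and for the summed Egr genes -0.24 (-0.36 to -0.12) and -0.0070 (-0.12 to 0.11). The interval of *Egr1* thus lay below 0 in the first group and included 0 in the second, while that of the summed Nr4a genes lay above 0 in both. The part of stress or handling in any of these levels was not tested.

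Cells with a UMI of both *Tcf7* and *Pdcd1*, a pair used to mark progenitor-like exhausted cells, numbered 156 in NC and 176 in WD. Their summed Nr4a level was 165 CPM (150 to 181) and 244 (228 to 261), and their summed Egr level 84.9 and 98.8, which is close to the values of the other cells (147 and 239 for Nr4a, 88.5 and 99.0 for Egr). Requiring a UMI of both genes favours deep cells, and depth was not made equal here. The 156 NC cells held 2684582 UMIs and the other 2300 held 25131203. In WD the 176 cells held 3452437 and the other 2113 held 25253393.

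Across 10 fine clusters in each library (20 points that share libraries and depth), the genes whose log2 CPM followed the summed Nr4a level most closely among 4719 genes were *Kdm2b* (Pearson r = 0.93), *Pqbp1* (0.92), *Nfat5* (0.91), *Ptp4a2* (0.91) and *2510002D24Rik* (0.90). *Nr4a3* (0.93) and *Nr4a2* (0.91) followed their own sum and *Nr4a1* did so less (0.38). For the summed Egr level they were *Tes* (0.95), *Zdhhc18* (0.95), *H2-Q6* (0.94), *Rlf* (0.94) and *Dock2* (0.94), with *Egr1* at 0.99, *Egr2* at 0.43 and *Egr3* at 0.26. Among these 10 the unnamed fine clusters 5 and 9 held the highest levels of both sums in both libraries. Without them (16 points) the 5 genes of each family stayed between 0.81 and 0.88, *Nr4a1* at 0.40, *Egr2* at 0.21 and *Egr3* at 0.31.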

How the data were processed

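CD8+ T cells from B16 tumors gave 1 library for NC and 1 for WD. The authors counted UMIs per gene and cell with Cell Ranger 6.0.2 on mm10, per the labels, with no annotation release given in the sources used here, and deposited these counts without normalization. The study's filter was applied (a mitochondrial share under 7.5%, and a total above 500 but below 50000 UMIs), which left out 241 of 2697 NC and 334 of 2623 WD cells. The numbers of cells that the study states as analysed after this filter are those of all deposited barcodes, so they are the numbers before these cells were left out here. No doublet caller was run.

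Levels are CPM of UMIs summed over cells, with exact Poisson intervals. Shares of cells have exact Clopper-Pearson intervals and diet ratios exact conditional binomial intervals, all at 95% and for counting error only. Intervals of the effector-like over naive-like family ratios use a normal approximation. No test was run, since a diet is 1 library. Clusters came from Seurat 5.3.0 (R 4.3.3) without integration, on 2000 variable genes that left out 72 listed genes, 20 principal components and 20 neighbours. The plan was the lowest resolution that gave 6 clusters. Steps of 0.05 gave no 6, so the resolution of 0.15 with 7 clusters was used, and 0.8 for the 13 fine clusters. For effector-like against naive-like cells, the clusters ranking highest on *Ifng*, *Prf1* and *Gzmb* and on naive markers including *Ccr7*, *Tcf7* and *Lef1* were used, and a further marker is not reported here. Only cells with enough UMIs were thinned, to 1000, 2000 or 5000. Cells with and without a transcript were compared over genes with at least 20 CPM in each library.

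The 6 genes, the 5 gene lists and the cluster markers were chosen with earlier results of these data known. Of each list, the 3 highest and 3 lowest ratios among genes with 100 UMIs in each library are named, and other genes named were chosen after their values were seen. Likeness is Pearson correlation of log2(CPM + 5) among genes with at least 20 CPM in each library. Gene positions are from GENCODE M21 and promoters from RefSeq. Counts were handled with Python 3.11.15, numpy 2.4.6, scipy 1.17.1 and pandas 2.3.3. On counts simulated for the comparison of WD with NC over all cells (11550 genes, 200 changed 1.5-fold), intervals covered 98% of the changed and 95.3% of the other true ratios. These counts were drawn as Poisson, the model behind the intervals. The coverage therefore checks the calculation only, without differences between cells, mice or libraries. Alternatives were TMM factors (edgeR 4.0.16), other totals, cell filters, thinning, a mean over cells, equal weight per cluster, cells low in AP-1 and stress UMIs, and other clusterings. Leaving out clusters 4 to 6, the 10 highest cells or fine cluster 11 was added after the data were seen.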

Additional observations from a re-analysis of the deposited data

Results flagged for a closer look

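The direction of *Nr4a1* between the diets differed among cell states. In the small fine cluster 11, led by *Xcl1*, *Ccl1* and *Crtam* (28 NC and 9 WD cells), the log2 ratio of WD over NC was -1.40 (-2.60 to -0.38), with 60 UMIs in NC and 9 in WD. In 6 other fine clusters its interval lay above 0, up to 1.91 (0.99 to 2.94) in the interferon-stimulated-like fine cluster 8. In fine clusters 0, 6, 7, 9 and 10 the interval included 0, and the ratio in fine cluster 7 was -0.19 (-0.77 to 0.40). The difference between these states was not tested, and cells of 1 library are not replicates.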

How the results depend on the processing

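The summed Nr4a genes were higher in WD under all 12 alternatives, with log2 ratios from 0.53 to 0.71, and each of *Nr4a1*, *Nr4a2* and *Nr4a3* was higher in all 12. *Egr3* was lower in all 12, from -0.91 to -0.43. Thinned to 2000 or 1000 UMIs, where at most 38 UMIs remained in a library, its interval included 0. Ratios of WD over NC outside the interval of the reported value were, for the Nr4a and the Egr family, 0.59 and 0.26 as a mean over cells, 0.62 and 0.074 over all deposited cells, 0.60 and 0.29 in cells thinned to 2000 UMIs, and 0.53 and -0.24 in cells low in AP-1 and stress UMIs. In those cells *Egr1* was also lower in WD (-0.16). *Egr2* ranged from -0.64 to 0.14. For effector-like over naive-like cells, the Nr4a and Egr ratios were 0.78 and 0.50 at a resolution of 0.8, 0.19 and -0.14 without mitochondrial and ribosomal protein genes in the total, and 0.81 and 0.34 in cells thinned to 2000 UMIs. The causes were not tested. Without a CPM minimum, 5.64% of 11831 genes were at least 1.5-fold higher in WD and 4.01% lower. Without fine cluster 11, TCR response genes higher in cells with *Nr4a3* were 5 instead of 9, and with *Egr3* 5 instead of 10. No paired analysis was possible because each diet has 1 library. The main limits are that diet cannot be told apart from library, mice or handling, and that *Egr2* and *Egr3* rest on 142 to 224 UMIs in a library.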
